A study of Mus musculus with 12 samples.

Results

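The mevalonate pathway builds the isoprenoid units from which cells make cholesterol, the prenyl anchors of small GTPases, ubiquinone and dolichol. The enzymes considered here carry acetyl-CoA to squalene. Acat2 is the cytosolic thiolase that joins acetyl-CoA units, Hmgcs1 makes HMG-CoA, Mvk and Pmvk phosphorylate mevalonate, Mvd decarboxylates it, Idi1 interconverts the isoprenyl diphosphates, Fdps makes farnesyl diphosphate and Fdft1 joins farnesyl units into squalene. Their genes are known targets of SREBP2, a membrane-bound transcription factor that is released when sterols are low. The 8 genes were taken by name from the 24411 genes of the deposited tables. All 8 were found and all 8 were among the 14743 genes counted deeply enough to be tested.

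The libraries came from wild-type ICR mouse blastocysts, in 6 groups of 2 libraries, each library made from a pool of 10 embryos. Embryos were obtained by fertilization of superovulated oocytes in vitro and grown in KSOM medium until 96 hpi. The groups were HFD_siNampt, ND_siNampt, HFD_siNT, ND_siNT, HFD_C and ND_C, where HFD and ND are diet codes that the labels leave unexplained (the title of the series mentions obese mice and mice of normal weight). siNampt is an siRNA against Nampt, the gene of the NAD-making enzyme also called visfatin, and siNT a non-targeting siRNA, both electroporated into zygotes at 3 to 6 hpi. C is the control, for which no siRNA is named. Nothing in the labels tells if each pool had its own mating, or which parent had the diet, so p-values measure the spread between pools, which may be partly technical. Replicates 1 and 2 are the batches of the labels.

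Totals lay between 42473129 and 50503064 expected counts per library. The typical gap between gene length and effective length was smallest in HFD_siNT replicate 1, at 185.7 bases, with a median of 216.9 over the libraries. HFD_siNampt replicate 1 had the most genes with a count, 17948, where the median was 16743. The part of these traits in the values of the enzymes was not tested. Nampt stood at 37.7 to 53.9 CPM (counts relative to the library total, scaled with TMM factors) in the 4 siNampt libraries and at 49.4 to 74.6 CPM in the 4 siNT libraries, so the groups overlapped, and its log2 difference of -0.43 (SE 0.17) did not pass (edgeR's quasi-likelihood test, adjusted p = 0.396). In pairs of the same diet and batch Nampt was lower in siNampt in 4 of 4, by CPM (log2 ratios of -0.58 to -0.28) and by TPM, where 10.1% of genes tested were lower in 4 of 4 pairs by CPM. Of the defining markers of trophectoderm, 7 of 7 were above 0 TPM in every library, as were 5 of 5 of the inner cell mass and 5 of 5 of the primitive endoderm. The 7 markers of cumulus and granulosa cells were at or near 0, with a highest value of 0.44 TPM for Has2. The 5 sperm markers summed to 1.67 to 5.29 TPM with Tnp1 at 0 in every library. In bulk pools, fewer cells of a type and less RNA per cell cannot be told apart.

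The promoters of 6 of the 8 genes were in the RefSeq table of GRCm38.p6, and Fdps and Fdft1 were not among them. Within the 250 bases before the RefSeq start, 3 motifs were searched on both strands. These were an SRE-like motif (TCACNCCAC, the kind of element that SREBP binds), the CCAAT box (CCAAT) and the GC box (GGGCGG), and no match of one overlapped a match of another. Hmgcs1 was the only one of the 6 with an SRE-like match, at bases -137 to -129, and 1.22% of the 27025 genes of the table had one in at least 1 window. A CCAAT box was found in 5 of the 6 (Acat2 had none), against 37.5% of all genes of the table, and a GC box in 5 of the 6 (Pmvk had none), against 35.4%. Pmvk has 2 windows, and its CCAAT box is in 1 of them. Mvk held 5 CCAAT boxes and Hmgcs1 3. These matches describe letters and not bound sites. The windows of Idi1 and Acat2 and 1 window of Pmvk reach into the gene as GENCODE vM21 places it (from 8885501 for Idi1). The CCAAT and GC boxes of Idi1 all lie in that part of its window. The windows of the 4 genes with both boxes that the values below turn on are printed 5′ to 3′ on the gene's strand, with the motif matches in capitals. They lie on GRCm38.p6 at chr13:119690101-119690350 (+ strand, Hmgcs1), chr5:114444019-114444268 (+ strand, Mvk), chr8:122443423-122443672 (- strand, Mvd) and chr13:8885356-8885605 (+ strand, Idi1).
Hmgcs1: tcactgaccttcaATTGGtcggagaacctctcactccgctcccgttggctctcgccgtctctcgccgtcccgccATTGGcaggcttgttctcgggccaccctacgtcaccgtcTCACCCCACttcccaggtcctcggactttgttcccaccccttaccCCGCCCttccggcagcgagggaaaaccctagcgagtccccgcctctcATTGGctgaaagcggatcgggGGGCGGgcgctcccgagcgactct
Mvk: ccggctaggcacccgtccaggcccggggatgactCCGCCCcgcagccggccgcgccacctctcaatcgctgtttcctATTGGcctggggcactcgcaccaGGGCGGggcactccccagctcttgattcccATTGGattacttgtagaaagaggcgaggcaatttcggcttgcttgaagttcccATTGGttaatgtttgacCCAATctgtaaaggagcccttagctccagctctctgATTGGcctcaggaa
Mvd: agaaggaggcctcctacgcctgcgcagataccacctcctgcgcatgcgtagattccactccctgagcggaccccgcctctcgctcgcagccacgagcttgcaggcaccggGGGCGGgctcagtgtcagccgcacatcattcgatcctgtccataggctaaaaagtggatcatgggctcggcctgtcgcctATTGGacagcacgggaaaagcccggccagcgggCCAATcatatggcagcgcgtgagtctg
Idi1: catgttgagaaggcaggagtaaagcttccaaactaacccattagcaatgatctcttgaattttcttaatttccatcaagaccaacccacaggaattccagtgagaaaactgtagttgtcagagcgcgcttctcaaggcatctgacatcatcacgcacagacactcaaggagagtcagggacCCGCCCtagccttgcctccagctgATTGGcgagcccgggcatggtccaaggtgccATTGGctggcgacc

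Per length, in TPM (abundance corrected for transcript length, as deposited), the levels of the 8 transcripts spanned 21.8-fold. Fdps was the most abundant, at 196 ± 33.7 TPM (SD over all 12 libraries), which placed it at percentile 94.1 of the genes tested. Acat2 followed at 84.7 ± 14.4 TPM, Idi1 at 66.9 ± 18.6 TPM and Pmvk at 60.0 ± 6.71 TPM. Fdft1 stood at 42.8 ± 6.89 TPM and Hmgcs1 at 39.9 ± 8.80 TPM. The lowest levels were those of the mevalonate kinase Mvk, at 12.5 ± 2.91 TPM, and of the decarboxylase Mvd, at 8.99 ± 2.67 TPM. The order was the same in 12 of 12 libraries for Fdps over Acat2, Pmvk over Fdft1, Hmgcs1 over Mvk and Mvk over Mvd. Acat2 exceeded Idi1 in 9 of 12 libraries, Idi1 exceeded Pmvk in 7 and Fdft1 exceeded Hmgcs1 in 10, so these neighbours were within their spread.

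The 8 genes lie on 6 chromosomes (GENCODE vM21, GRCm38), and all are protein-coding. Pmvk (from 89454541 to 89469013, + strand) and Fdps (from 89093588 to 89101959, - strand) are both on chromosome 3, and Hmgcs1 (from 119690379 to 119708260, + strand) and Idi1 (from 8885501 to 8892451, + strand) on chromosome 13. Mvk is on chromosome 5 from 114444269 to 114460591 (+ strand), Mvd on chromosome 8 from 122433601 to 122443422 (- strand), Acat2 on chromosome 17 from 12942890 to 12960747 (- strand) and Fdft1 on chromosome 14 from 63145150 to 63179578 (- strand). Counts behind the values were 338 to 941 for Mvd and 525 to 1238 for Mvk, and at least 2225 in every library for the other 6. Fdft1 overlaps the cathepsin gene Ctsb on the opposite strand by 774 bases, and its counts were not whole in 11 of 12 libraries, as happens when reads are shared out. The counts of Acat2 were not whole in 12 of 12 libraries, nor were those of its near copy Acat3, which had 50 to 94 counts against 4780 to 9403 for Acat2. Acat2 and Fdft1 are therefore given with that uncertainty. Other members overlap genes that the deposited tables do not hold. Fdps overlaps the protein-coding Gm43738 by 7512 bases and the snRNA Gm22935 by 104 bases, both on the same strand. Mvd (9822 bases), Hmgcs1 (6190 bases) and Idi1 (323 bases) overlap such genes on the opposite strand. The part of these overlaps in the values was not tested.

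The question of diet was asked by setting HFD against ND over all treatments and within each. Over all treatments, 7 of the 8 genes had a log2 fold change above 0, with a median of 0.20, while the median of all genes tested was 0.00 and 50.8% of them were above 0. No gene of the table passed the adjusted threshold of 0.05 (0% called), and the 8 members had an adjusted p of 1.00 (edgeR's quasi-likelihood test with Benjamini-Hochberg adjustment over 14743 genes). At an unadjusted p under 0.05 there were 2 of the 8, both higher in HFD, against 1.72% of all genes in that direction and 1.49% in the other. These were Fdps, the farnesyl diphosphate synthase, and Mvk, the mevalonate kinase.

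Fdps stood at 251 and 171 CPM in HFD_siNampt (replicates 1 and 2) and at 221 and 196 CPM in ND_siNampt. It had 235 and 253 CPM in HFD_siNT, against 197 and 160 CPM in ND_siNT. In the controls it had 222 and 227 CPM in HFD_C, against 187 and 143 CPM in ND_C. Both HFD libraries thus lay above both ND libraries in siNT and in C, and the diets overlapped in siNampt. Over all treatments Fdps averaged 227 ± 29.9 CPM in HFD and 184 ± 28.1 CPM in ND (SD, n = 6), a log2 fold change of 0.30 (SE 0.12, 95% interval 0.05 to 0.56). It was higher in HFD in 5 of 6 pairs of the same treatment and batch, where 10.5% of genes tested were higher in at least 5 of 6 pairs. The mean log2 ratio of the pairs was 0.23 in batch 1 and 0.38 in batch 2.

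Mvk had 26.5 and 20.7 CPM in HFD_siNampt, against 20.9 and 18.6 CPM in ND_siNampt. In the siNT groups it had 23.8 and 19.4 CPM with HFD and 15.6 and 12.3 CPM with ND, and in the controls 17.4 and 17.95 CPM with HFD and 18.0 and 15.3 CPM with ND. The HFD libraries lay apart from the ND libraries in siNT and overlapped them in siNampt and C. Mvk averaged 21.0 ± 3.54 CPM in HFD and 16.8 ± 3.04 CPM in ND (SD, n = 6), a log2 fold change of 0.32 (SE 0.13, 95% interval 0.05 to 0.60). It was higher in HFD in 5 of 6 pairs, with a mean log2 ratio of 0.30 in batch 1 and 0.35 in batch 2. Acat2 was the remaining gene with 5 of 6 pairs higher in HFD, at 168 ± 14.3 CPM in HFD and 151 ± 27.1 CPM in ND, but its batches differed, with mean log2 ratios of -0.02 in batch 1 and 0.36 in batch 2.

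**Figure D1:**
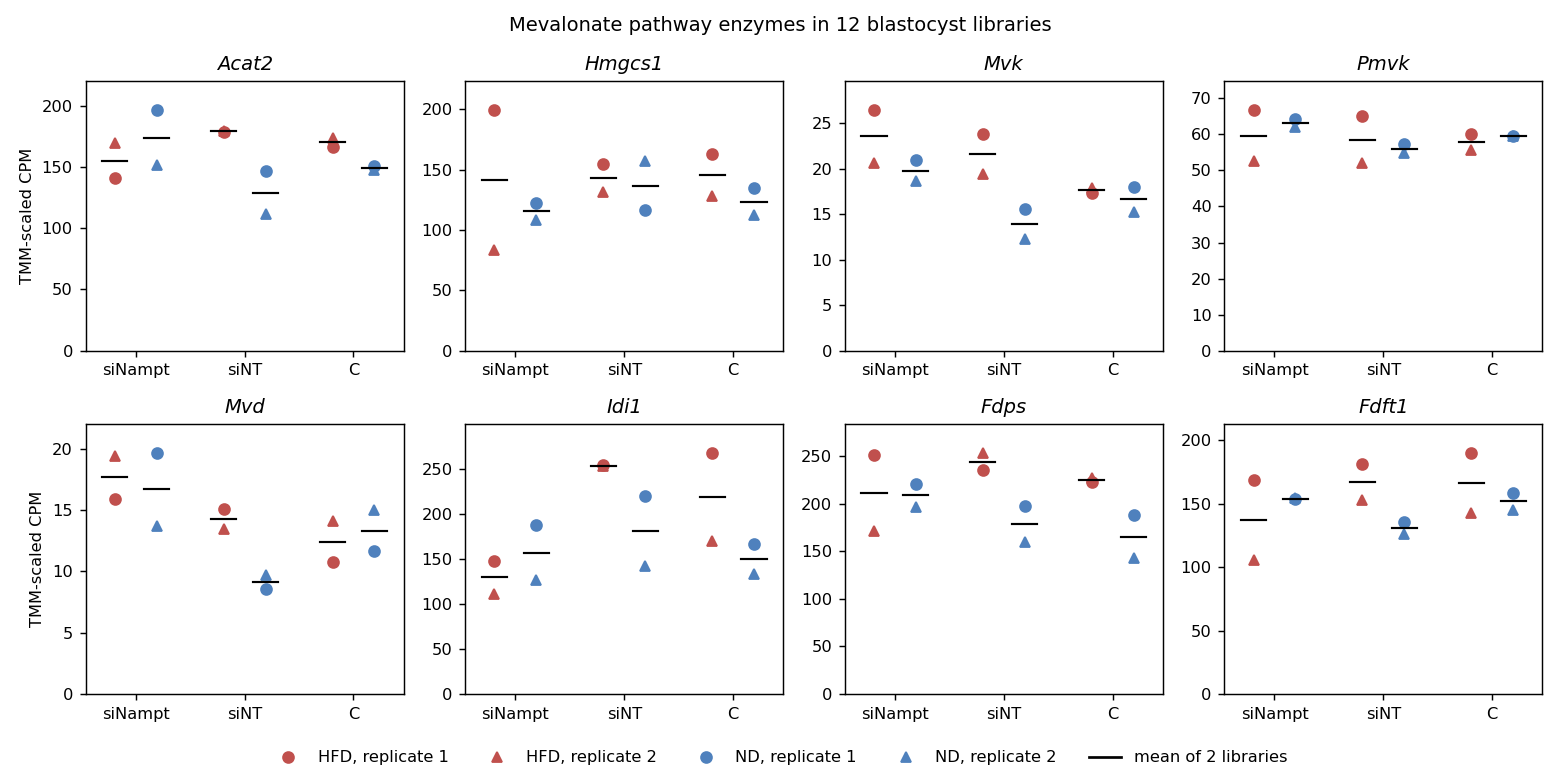
CPM of the 8 enzymes in each library (vertical axes from 0, TMM-scaled CPM), with HFD in red to the left of ND in blue within siNampt, siNT and C; circles are replicate 1, triangles replicate 2 and bars the mean of 2 libraries. In siNT, Idi1 stood at 254 and 252 CPM with HFD, above its 219 and 142 CPM with ND, and in siNampt the HFD bar of Idi1 lies below the ND bar.

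For the other 5 genes the log2 fold change of HFD against ND over all treatments was 0.25 (SE 0.17) for Idi1, 0.21 (SE 0.16) for Mvd, 0.20 (SE 0.17) for Hmgcs1, 0.11 (SE 0.12) for Fdft1 and -0.02 (SE 0.09) for Pmvk. Acat2 had 0.17 (SE 0.12). Several of these values rested on single libraries. Hmgcs1 was 0.0085 without HFD_siNampt replicate 1 and 0.31 without HFD_siNampt replicate 2. Fdft1 was 0.039 without HFD_siNT replicate 1 and 0.21 without HFD_siNampt replicate 2, and Idi1 was 0.12 without HFD_C replicate 1 and 0.40 without ND_siNampt replicate 1. Acat2 was 0.079 without ND_siNT replicate 2 and 0.26 without ND_siNampt replicate 1, and Mvd was 0.13 without ND_siNT replicate 1. The phosphomevalonate kinase Pmvk varied least, between 52.0 and 66.8 CPM over the 12 libraries, and its 95% interval ran from -0.22 to 0.18. Its difference turned above 0 with limma on TPM (0.011) and without HFD_siNampt replicate 2 (0.024). Hmgcs1 was higher in HFD in 4 of 6 pairs, with mean log2 ratios of 0.47 in batch 1 and -0.15 in batch 2.

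Split by treatment, HFD minus ND was above 0 for 8 of 8 genes in siNT, with a median log2 fold change of 0.46, for 6 of 8 in C, with a median of 0.16, and for 4 of 8 in siNampt, with a median of -0.03. Among all genes tested, 50.5% were above 0 in siNT (median 0.00), 48.3% in C (median -0.01) and 52.3% in siNampt (median 0.02). None of the members passed in any of these comparisons (0% of all genes called in each, adjusted p of 1.00 for each member). The 8 genes come from the same libraries and vary together, with a median Pearson r of 0.43 over their 28 pairs. Their mean z-score was lowest in ND_siNT replicate 2, at -1.10. Counts of members, here and elsewhere, are therefore not counts of separate observations. In siNT, 4 of the 8 were at an unadjusted p under 0.05 and higher in HFD, against 1.64% of all genes, with 1.15% lower. These were Mvk at 0.64 (SE 0.22), Mvd at 0.65 (SE 0.25), Acat2 at 0.47 (SE 0.17) and Fdps at 0.45 (SE 0.20), and Idi1 stood at 0.49 (SE 0.27). Without ND_siNT replicate 2, Acat2 was 0.29 and Idi1 0.21 in siNT, and without ND_siNT replicate 1 Idi1 was 0.84. In C, 1 of 8 was, against 1.4% of all genes in each direction. It was Fdps at 0.44 (SE 0.20), and Idi1 there stood at 0.54 (SE 0.27). Single libraries moved both: Idi1 in C was 0.19 without HFD_C replicate 1 and 0.83 without HFD_C replicate 2, and Fdps was 0.26 without ND_C replicate 2 and 0.66 without ND_C replicate 1. In siNampt, 0 of 8 were at an unadjusted p under 0.05, where 1.89% of all genes were higher and 1.79% lower, and the smallest p values belonged to Mvk at 0.25 (SE 0.22) and Idi1 at -0.28 (SE 0.27). Mvk there was 0.07 without HFD_siNampt replicate 1 and 0.39 without HFD_siNampt replicate 2. With the batch as a replicate block, the members at an unadjusted p under 0.05 were 5 in siNT, 2 in C and 0 in siNampt. Of 14743 genes, those at that p rose from 411 to 509 in siNT, 414 to 521 in C and 543 to 627 in siNampt.

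**Figure D2:**
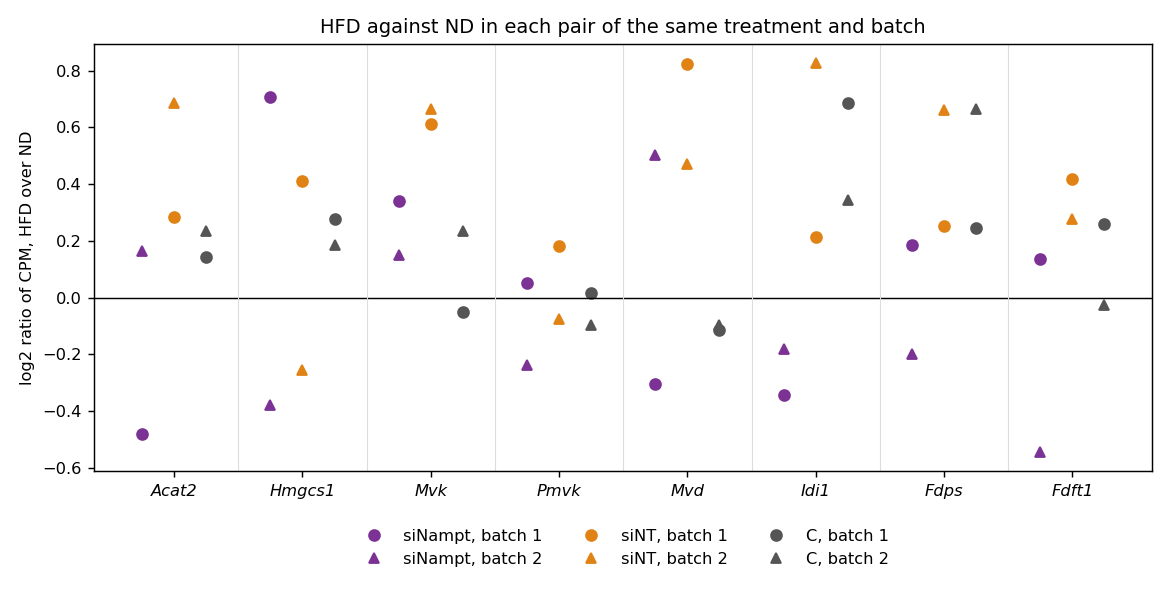
Log2 ratio of CPM, HFD over ND (vertical axis), for each gene in the 6 pairs of the same treatment and batch; purple is siNampt, orange siNT and grey C, circles are batch 1 and triangles batch 2. Idi1 is above 0 in the 4 pairs of siNT and C and below 0 in both pairs of siNampt, and Fdps and Mvk are above 0 in 5 of 6 pairs.

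Idi1, the isomerase of the isoprenyl diphosphates, had HFD to ND ratios on opposite sides of 1 between treatments, although the siNampt difference turned above 0 (0.038) without ND_siNampt replicate 1. It had 148 and 111 CPM in HFD_siNampt, against 188 and 126 CPM in ND_siNampt. In siNT it had 254 and 252 CPM with HFD, against 219 and 142 CPM with ND. In the controls it had 267 and 170 CPM in HFD_C, against 166 and 133 CPM in ND_C. HFD was the lower diet in both pairs of siNampt and the higher in both pairs of siNT and of C, a pattern that 1.44% of all genes tested had. The diet effect in siNampt minus that in siNT was -0.76 for Idi1 (SE 0.38, 95% interval -1.59 to 0.06, adjusted p = 1.00 in edgeR's interaction test), and lay between -1.11 without ND_siNT replicate 1 and -0.45 without ND_siNampt replicate 1. Idi1 was also higher in replicate 1 than in replicate 2 in all 6 groups, as were 2.89% of genes tested, by up to 1.58-fold, and its within-group SD of 0.34 on the log2 scale was second to the 0.41 of Hmgcs1.

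The same interaction was below 0 for 7 of the 8 genes, with a median of -0.48, while the median of all genes tested was 0.02 and 51.3% were above 0. Because the siNT libraries enter it with the opposite sign, it shares them with the HFD against ND comparison in siNT above. None passed (0% of all genes called, adjusted p = 1.00 for each), and 1 of 8 was at an unadjusted p under 0.05 and lower, against 1.62% of all genes, with 1.44% higher. That gene was Acat2, at -0.64 (SE 0.25, 95% interval -1.17 to -0.10). With the replicate block 3 of 8 were at that p in either direction. All genes at that p rose from 451 to 542 of 14743. Fdft1, the squalene synthase, stood at -0.52 (SE 0.30), with -0.89 without HFD_siNampt replicate 1 and -0.26 without HFD_siNampt replicate 2. Hmgcs1 was the exception, with a difference above 0 and an interval from -0.73 to 1.18.

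The knockdown comparison, siNampt against siNT over both diets, gave no common direction, with 5 of 8 genes above 0 and a median log2 fold change of 0.06, against 0.03 for all genes tested, of which 52.8% were above 0. With limma on log2(TPM + 1) 6 of 8 were above 0, with a median of 0.20, against 0.07 for all genes. None passed (0% of all genes called, adjusted p 0.396 to 0.981 over the 8). At an unadjusted p under 0.05 there were 2 of 8, 1 in each direction, where 6.1% of all genes were higher and 5.05% lower. Mvd, the decarboxylase, had 15.9 and 19.5 CPM in HFD_siNampt, against 15.1 and 13.5 CPM in HFD_siNT. With ND it had 19.7 and 13.7 CPM in siNampt, against 8.53 and 9.71 CPM in siNT. Its libraries overlapped over both diets and were apart within each. Mvd averaged 17.2 CPM in siNampt (13.7 to 19.7, n = 4) and 11.7 CPM in siNT (8.53 to 15.1, n = 4), a log2 fold change of 0.57 (SE 0.19, 95% interval 0.16 to 0.99), and was higher in siNampt in 4 of 4 pairs, as were 11.1% of genes tested. Mvk and Pmvk were also higher in 4 of 4 pairs, Mvk at a log2 fold change of 0.31 (SE 0.16), which was 0.19 without ND_siNT replicate 2. The log2 ratios of the Pmvk pairs were small, from 0.02 to 0.18. For Mvd, the mean of the 4 control libraries (12.9 ± 2.02 CPM) lay between the means of the siRNA groups. The control libraries, at 10.8 to 15.1 CPM, overlapped both of these groups.

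Idi1 averaged 143 ± 33.2 CPM in siNampt and 217 ± 52.4 CPM in siNT (SD, n = 4), a log2 fold change of -0.57 (SE 0.21, 95% interval -1.02 to -0.11). It was lower in siNampt in 4 of 4 pairs on the CPM scale, as were 10.1% of genes tested, and in 3 of 4 pairs on the TPM scale. The controls stood at 184 ± 57.7 CPM. Within HFD the log2 fold change of Idi1 was -0.97 (SE 0.27, unadjusted p = 0.00368, adjusted p = 0.923 with edgeR), with 2.31% of all genes at an unadjusted p under 0.05 and lower and 1.97% higher. In that comparison 3 of 8 members and 53.7% of all genes were above 0, with medians of -0.11 and 0.04. Without the filter on low counts Idi1 passed with edgeR in HFD (-0.98, adjusted p = 0.000153) and over both diets (-0.57, adjusted p = 0.00951). The HFD value came from the fit of 6 group means, whose prior degrees of freedom were then estimated as infinite. Every gene of that fit thus takes its spread from the trend over all genes. For the additive fit, which gave the value over both diets, these degrees of freedom were not looked at. Within ND, 3 of 8 genes were at an unadjusted p under 0.05 and higher in siNampt, against 4.61% of all genes, with 3.74% lower, and 6 of 8 were above 0, against 50.9% of all genes. These were Mvd at 0.87 (SE 0.25), Mvk at 0.51 (SE 0.22) and Acat2 at 0.43 (SE 0.17). All 3 were also at an unadjusted p under 0.05 for HFD against ND in siNT. Both comparisons subtract the same 2 ND_siNT libraries, which held the lowest CPM of each of the 3. The 2 results are thus not separate observations. Acat2 was 0.24 without ND_siNampt replicate 1 and 0.65 without ND_siNT replicate 1. Acat2, with ND, stood at 197 and 151 CPM in siNampt, against 146 and 112 CPM in siNT. With HFD it stood at 141 and 170 CPM in siNampt, against 178 and 180 CPM in siNT. Acat2 and Fdft1 were thus higher in siNampt in both ND pairs and lower in both HFD pairs, as were 5.03% of genes tested. By TPM this held for Fdft1 but not for Acat2, which was higher in siNampt in 3 of 4 pairs. For Acat2, ND_siNT replicate 2 was low at 112 CPM, while replicate 1 at 146 CPM was close to the 151 and 147 CPM of ND_C.

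**Figure D3:**
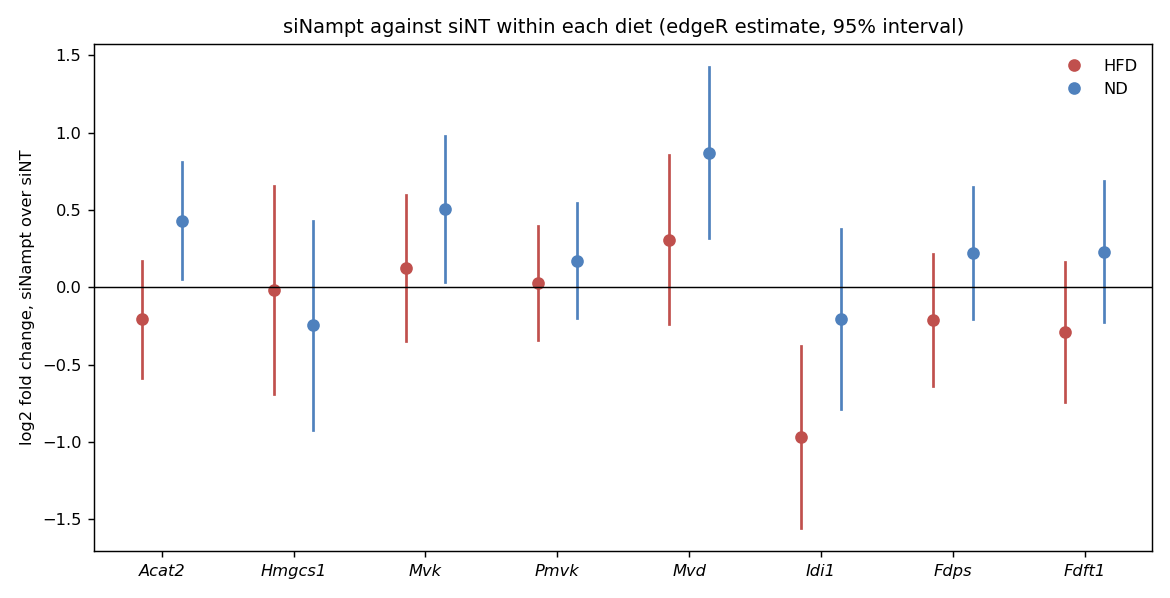
Log2 fold change of siNampt over siNT (vertical axis, edgeR estimate) for each gene within HFD (red) and ND (blue); lines are 95% intervals from the fit of all 12 libraries. The intervals of Idi1 in HFD and of Acat2, Mvk and Mvd in ND leave out 0, and none of these genes passed after adjustment over 14743 genes.

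The trophectoderm markers summed to 3387 to 5174 TPM in siNampt, 2744 to 3562 TPM in siNT and 2999 to 3778 TPM in C. These ranges overlapped, with medians of 4870, 3243 and 3626 TPM. Most of the sum came from the keratins Krt18 and Krt8, with medians of 2427 and 911 TPM over the 12 libraries. The median sums of the inner cell mass markers were 89.6 TPM in siNampt, 69.7 TPM in siNT and 89.8 TPM in C. Those of the primitive endoderm markers were 64.9, 55.6 and 65.8 TPM. Each of these lists thus had a higher median in siNampt than in siNT. On the TPM scale the median of all genes tested was also higher in siNampt than in siNT, by 0.07 (limma on log2(TPM + 1), both diets). The rise of the sums is therefore not particular to the markers by these values. By diet the trophectoderm sums overlapped, at 2999 to 4925 TPM in HFD and 2744 to 5174 TPM in ND. The part of these markers in the values of the enzymes was not tested. For siNT against C over both diets, 4 of 8 genes were above 0 with a median of -0.01 (all genes -0.01). With limma on log2(TPM + 1) 1 of 8 was above 0, with a median of -0.13 (all genes -0.07). By edgeR, 47.8% of all genes were above 0 and 0% were called. At an unadjusted p under 0.05 there were 0 of 8, against 1.97% of all genes higher and 2.42% lower, and the smallest p values belonged to Idi1 at 0.24 (SE 0.21) and Mvd at -0.16 (SE 0.19), with adjusted p of 0.988 and 0.991 (edgeR). Idi1 there was 0.13 without ND_C replicate 2 and 0.44 without HFD_C replicate 1, and Mvd was -0.04 without ND_C replicate 2 and -0.30 without HFD_C replicate 1. Fdps was higher in siNT in 4 of 4 pairs by CPM, as were 6.92% of genes tested, and in 1 of 4 by TPM.

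Single libraries set much of the spread. HFD_siNampt replicate 1 held the highest CPM of 3 of the 8 genes (Hmgcs1, Mvk and Pmvk) and HFD_siNampt replicate 2 the lowest of 3 (Hmgcs1, Idi1 and Fdft1). Hmgcs1 had 200 and 83.6 CPM in these libraries, a 2.39-fold difference between replicates, against 122 and 109 CPM in ND_siNampt. In siNT it had 155 and 132 CPM with HFD and 116 and 157 CPM with ND, and in the controls 163 and 128 CPM with HFD and 135 and 113 CPM with ND. Fdft1 had 168 and 106 CPM in HFD_siNampt, against 153 and 154 CPM in ND_siNampt. It had 182 and 153 CPM in HFD_siNT, against 136 and 127 CPM in ND_siNT, and in C 190 and 143 CPM with HFD and 159 and 145 CPM with ND. Its HFD libraries thus lay above its ND libraries in siNT and overlapped them in siNampt and C. Without HFD_siNampt replicate 2 the median log2 fold change of HFD against ND in siNampt was 0.07, and without HFD_siNampt replicate 1 it was -0.27.

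The genes whose pattern over the 12 libraries was most like the mean z-score of the 8 members were sought among the 8483 genes averaging 5 CPM or more. Among genes outside the 8, they were Slc1a1, a glutamate transporter (Pearson r 0.93), Fchsd2 (0.93), Sqle, the squalene epoxidase that acts on the product of Fdft1 (0.91), Cyp51, the lanosterol demethylase (0.89), and Chka, a choline kinase (0.87). These values are a description over libraries that differ in depth and come in 2 batches. The members themselves ranked from 10 (Fdps, 0.84) to 1400 (Mvd, 0.36), although each is part of the mean. Mvd and Idi1 were the least alike pair of members (Pearson r -0.34 over the 12 libraries), and Hmgcs1 and Fdft1 the most alike (0.69), with a median of 0.43 over the 28 pairs. The genes that make, hold and cut SREBP spread widely on the same measure. Insig1, which holds SREBP in the endoplasmic reticulum, had 0.81 and Srebf2, the gene of SREBP2, 0.76. Insig2 had 0.41, the protease gene Mbtps2 0.39, Srebf1 0.35 and Scap 0.19, and the protease gene Mbtps1 had -0.23.

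**Figure D4:**
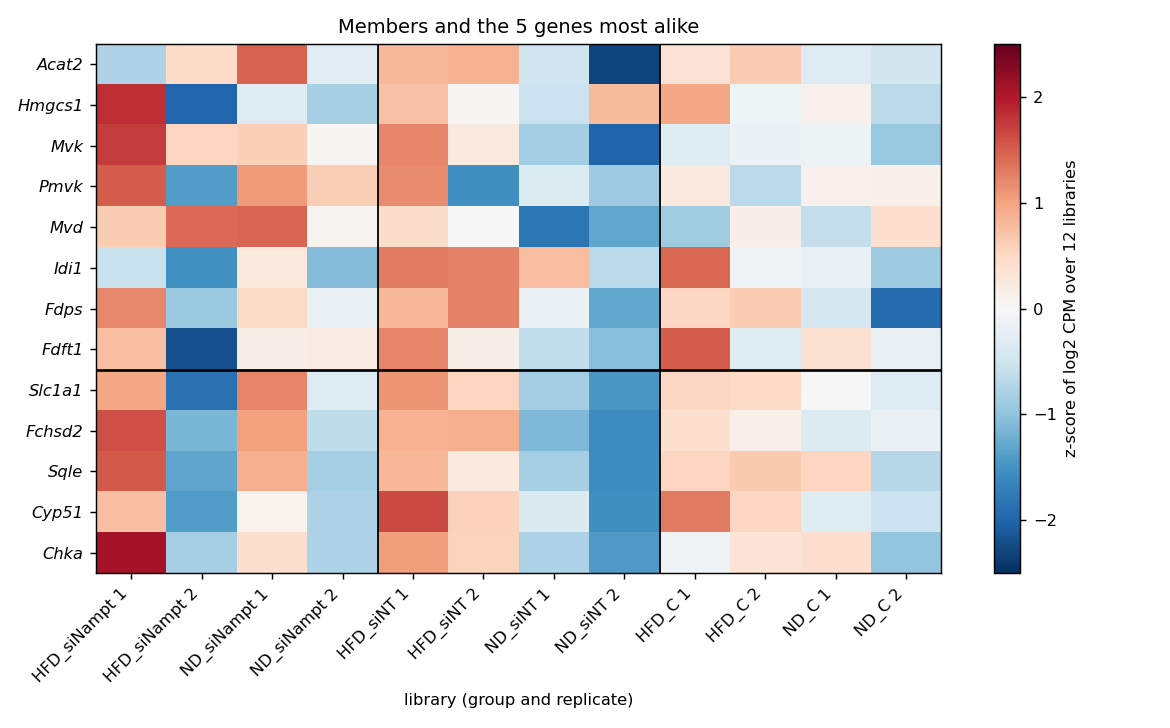
Z-scores of log2 CPM over the 12 libraries (colour, red above and blue below the gene's mean) for the 8 members and the 5 genes most alike (rows) in each library (columns, siNampt, siNT and C from left to right with HFD left of ND). ND_siNT replicate 2 and HFD_siNampt replicate 2 are blue in most rows, and HFD_siNampt replicate 1 and HFD_siNT replicate 1 red in most.

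The neighbouring genes of the pathway were described by 4 lists. In HFD against ND over all treatments, 50.8% of all genes tested were above 0, with a median of 0.00. Of 12 enzymes from squalene to cholesterol, all tested, 10 were above 0 in that comparison, with a median of 0.21, and 0 passed in either direction. The genes of a list share the same libraries, so these counts are not of separate observations. Cyp51 was at 0.48 (SE 0.17, adjusted p = 1.00 with edgeR) and Sqle at 0.33 (SE 0.18). The median of the 12 enzymes was 0.34 in siNT and 0.08 in siNampt, against 0.00 and 0.02 for all genes tested. Of 17 tested genes of SREBP control and sterol transport, from 18 listed, 13 were above 0 with a median of 0.02 and 0 passed. Srebf2 stood at 0.40 (SE 0.18). The 16 genes of the prenyl branch, which uses farnesyl diphosphate for other products, had 7 above 0, a median of -0.02 and 0 that passed. Zmpste24, a protease that trims prenylated proteins, was at -0.18 (SE 0.09) and Icmt, which methylates them, at 0.33 (SE 0.19). The 8 acetyl-CoA and ketone body genes had 5 above 0, a median of 0.07 and 0 that passed. In siNampt against siNT over both diets 0 genes of these lists passed either, and the median of all genes tested was 0.03. The medians of the lists were -0.06 for squalene to cholesterol, 0.18 for SREBP control and transport, -0.04 for the prenyl branch and 0.08 for the acetyl-CoA list. The smallest p values there belonged to Fntb, a farnesyltransferase subunit, at 0.42 (SE 0.13), Nr1h2, a liver X receptor, at 0.41 (SE 0.15), and Scap, the escort of SREBP, at 0.45 (SE 0.20), with adjusted p of 0.396, 0.396 and 0.431 (edgeR).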

How the data were processed

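Poly(A) RNA from 12 pools of 10 blastocysts was sequenced from SMART-Seq libraries, per the labels. STAR 2.7.10, RSEM 1.2.28 and mm10 are named in the submitters' processing notes, without settings, and neither names the strandedness of the libraries. Per the file headers, the deposited values are RSEM's expected counts, TPM and FPKM, beside gene lengths and effective lengths in bases. The deposited FPKM values were not used. Expected counts, of which 6.16 to 6.8% were not whole in a library, were rounded to whole numbers.

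Genes were kept with filterByExpr on the 6 groups (minimum count 10), scaled with TMM and tested by quasi-likelihood (edgeR 4.0.16, R 4.3.3; two-sided, Benjamini-Hochberg, threshold 0.05). All 12 libraries entered each fit. Comparisons over all treatments or both diets came from a model with additive diet and treatment terms, the others from one with 6 group means, 9 in all. Each SE was derived from the F statistic (the size of the log2 fold change over the root of F), and 95% intervals use the fit's degrees of freedom. The fit was also run on simulated counts, with a common spread for all genes and diet changes larger than those of the members. That run does not bear on differences of the members' size. Alternatives used DESeq2 1.42.0, limma 3.58.1 on log2 TPM with a pseudocount of 1 or 0.1, other scaling and filters, and each library left out.

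The members, lists and naming rule were chosen with earlier results of these data known. All 8 members were named. From each list the 2 genes of smallest p in a comparison were to be named, and not all are given. Some genes of the pathway and of the lists are not reported here. Fitted values of single members are printed for all 8 over all treatments and elsewhere for those of smallest p, a choice made after the values were seen. The remarks on Fdft1 in the interaction, on the genes of SREBP processing and on single libraries were also made then.

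Replicate numbers equal the batch tag of the labels, so they pair the libraries. Differences between replicates correlated between groups at r = -0.06 to 0.22 over 15 pairs of groups (across genes). The tests here carry no replicate term, and an alternative added it as a block.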

Additional observations from a re-analysis of the deposited data

Results flagged for a closer look

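For Idi1, HFD was lower than ND in both pairs of siNampt and higher in both pairs of siNT. The difference between these diet effects was -0.76 on the log2 scale (SE 0.38), between -1.11 without ND_siNT replicate 1 and -0.45 without ND_siNampt replicate 1. With that ND_siNampt library left out, the diet difference of Idi1 in siNampt was itself above 0 (0.038). For Acat2, siNampt was lower than siNT in both HFD pairs and higher in both ND pairs, with a difference of -0.64 (SE 0.25), between -0.85 without ND_siNT replicate 1 and -0.44 without ND_siNampt replicate 1. These are CPM pairs, and by TPM Acat2 was higher in siNampt in 3 of 4 pairs. Fdft1 had the Acat2 pattern, both by CPM and by TPM, with a difference of -0.52 (SE 0.30), between -0.89 without HFD_siNampt replicate 1 and -0.26 without HFD_siNampt replicate 2. The interaction test of edgeR gave an adjusted p of 1.00 for each of these 3 genes, so none of the differences passed. A pattern of higher in both ND pairs and lower in both HFD pairs was seen in 5.03% of genes tested. No group had enough libraries for a test of single outlying libraries.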

How the results depend on the processing

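No gene passed with edgeR in the 9 comparisons. DESeq2 called 2 genes for HFD against ND over all treatments, 7 in C, 1 for siNampt against siNT over both diets, 2 in HFD and 2 for siNT against C, and of the member values given above none passed with it (smallest adjusted p 0.185, Mvd for siNampt against siNT in ND). With no filter on counts, edgeR gave 99 calls for diet over all treatments, 80 in C, 86 in siNT, 57 in siNampt, 40 for the interaction, 119 for siNampt against siNT over both diets, 108 in ND, 68 in HFD and 76 for siNT against C, with infinite prior degrees of freedom, and Idi1 passed in 2 of these. Leaving out 1 library gave 0 to 1 calls for diet over all treatments (1 without ND_siNampt replicate 1), 0 to 3 for diet in siNampt, 0 to 2 for the interaction and 0 to 1 for siNampt against siNT in HFD (each highest without HFD_siNampt replicate 2). The replicate block changed no call after adjustment, with member medians of 0.19 for diet over all treatments and -0.50 for the interaction.

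The log2 fold change of Pmvk over all treatments turned to 0.011 and 0.012 with limma on TPM (pseudocount 1 and 0.1), and ranged from -0.076 to 0.024 over the libraries left out. That of Idi1 for diet in siNampt ranged from -0.546 to 0.038 (above 0 without ND_siNampt replicate 1). The members' median for siNampt against siNT in ND moved from 0.23 in the main edgeR fit to 0.40 and 0.41 with limma on TPM (pseudocount 1 and 0.1). The median of all genes there was 0.01 in the main fit and 0.09 with a pseudocount of 1. With a pseudocount of 0.1 the median of all genes itself moved to 0.16 in that comparison, 0.14 over both diets, 0.13 in HFD, 0.10 for diet in siNT and -0.11 for siNT against C, and the cause was not tested. Leaving out 1 library, the members' median ranged from -0.270 to 0.075 for diet in siNampt, from -0.594 to -0.253 for the interaction and from -0.324 to 0.074 for siNampt against siNT in HFD, the ends set by HFD_siNampt libraries except -0.594 (without HFD_siNT replicate 2). With 2 libraries a group the SE of a member within a treatment was 0.17 to 0.31, so differences of that size were not detectable. Much larger ones did not pass either in the main edgeR fit. Among them were -0.97 for Idi1 (siNampt against siNT in HFD) and 0.87 for Mvd (siNampt against siNT in ND).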
